A study of Mus musculus with 12 samples.

Results

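The 9 genes described here encode ubiquitin ligases of the endoplasmic reticulum (ER) other than Hrd1, the ubiquitin-conjugating (E2) enzymes that work with ER ligases, and the Vcp machinery that pulls marked proteins out of the ER membrane. They were taken by symbol from the count tables (Rnf139, Rnf5, Ube2j1, Ube2j2, Ube2g2, Vcp, Nploc4, Ufd1l and Faf2). The tables list 23337 symbols. A filter on low counts left 12038 of them for testing, among them 9 of 9 of these genes. The question was whether their RNA differs with the KO label of Hrd1. In ER-associated degradation (ERAD) a membrane ligase and its E2 attach ubiquitin to a misfolded ER protein on its cytosolic side. The ATPase Vcp (p97), recruited to the membrane by Faf2 and to ubiquitin by the Nploc4-Ufd1 pair, then extracts the protein for the proteasome. Hrd1, encoded by Syvn1, is the best known ligase of this route. Regulatory T cells (Treg) are CD4 T cells that restrain other immune cells under the transcription factor Foxp3.

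RNA came from 12 libraries of 4 groups, 3 libraries each, from C57BL/6 mice aged 8 weeks. KO-labelled iTreg and WT-labelled iTreg were made from CD4 T cells kept with IL2 and TGFbeta for 5 days, after which the GFP-positive cells were taken. KO-labelled nTreg and WT-labelled nTreg are CD4+GFP+ cells taken by sorting straight from spleens and lymph nodes. KO stands for Hrd1 flox/flox and WT for Hrd1 +/flox, and all 4 groups carry FoxP3-cre with GFP, so the WT-labelled cells also hold 1 floxed allele and the Cre. The Cre is driven by Foxp3, and in cultured iTreg it can act only once Foxp3 is switched on. Nothing in the labels says whether replicates came from separate mice. The p-values therefore describe only how these libraries vary, which may in part be technical. In nTreg of both labels and in WT-labelled iTreg, Xist (given below) differed strongly between replicates. Those replicates were thus not all repeats of 1 sample.

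Total counts ran from 6763458 to 15462894 per library. The Treg markers Cd3e, Cd4, Foxp3, Il2ra and Ctla4 were present in all 12 libraries, summing to 3490 to 5060 CPM (counts per 1000000 counts of a library, normalised throughout by edgeR's TMM factors). Their directions differ within this sum. Il2ra stood at 2440 to 3590 CPM in iTreg and 794 to 1220 CPM in nTreg. Foxp3 stood at 191 to 393 CPM in iTreg and 565 to 668 CPM in nTreg, and Cd3e, Cd4 and Ctla4 also tended lower in iTreg. Syvn1 stood at 146, 137 and 130 CPM in KO-labelled nTreg, against 73.7, 87.2 and 75.5 CPM in WT-labelled nTreg, and at 54.6, 73.1 and 63.1 CPM in KO-labelled iTreg, against 61.6, 72.2 and 101 CPM in WT-labelled iTreg. The nTreg values go against the label, but the floxed exons are not given in the sources used here, so a count over the whole gene does not check it. Xist was high in 3 libraries (nTreg replicate 3 of both labels and iTreg WT replicate 2), at 486 to 2040 CPM, and at most 0.232 CPM in the others (plain CPM, without TMM). The summed myeloid markers ranged from 31.9 to 267 CPM in KO-labelled nTreg and from 34.7 to 127 CPM in WT-labelled nTreg, highest in replicate 2 of each. In bulk samples, fewer cells of a type and less RNA per cell cannot be told apart.

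As background, ER stress factors raise several ERAD genes through short promoter elements, so sequences at the start sites are shown first. RefSeq promoter windows (GRCm38.p6, 250 bases before to 50 after the start) were matched for 6 of the 9 genes (Ube2j1, Ube2j2, Vcp, Nploc4, Ufd1l and Faf2). Rnf139, Rnf5 and Ube2g2 were not matched. The elements searched on both strands were a first ER stress element (CCAAT, any 9 bases, then CCACG) and a second (ATTGG, any 1 base, then CCACG), both bound by ATF6 with NF-Y, TGACGTG, the core of the XBP1 and ATF6 element, TGATGCAAT, an ATF4 and CHOP element, and TGACNNNGC, the antioxidant element. Vcp and Ube2j1 held TGACGTG, and the other 4 genes held none of the first 3 elements (the ER stress elements and TGACGTG). Over 32851 windows of 300 bases, 2.01% held TGACGTG, 0.119% the first ER stress element, 0.0365% the second, 0.192% TGATGCAAT and 12.4% TGACNNNGC. TGACNNNGC was also found in Ube2j1, Vcp and Faf2, and TGATGCAAT in none of the 6. The windows of Ube2j1 and Vcp are printed with that of Herpud1, an Hrd1 partner, for contrast; capitals mark the fixed bases of these 3 elements.
Ube2j1: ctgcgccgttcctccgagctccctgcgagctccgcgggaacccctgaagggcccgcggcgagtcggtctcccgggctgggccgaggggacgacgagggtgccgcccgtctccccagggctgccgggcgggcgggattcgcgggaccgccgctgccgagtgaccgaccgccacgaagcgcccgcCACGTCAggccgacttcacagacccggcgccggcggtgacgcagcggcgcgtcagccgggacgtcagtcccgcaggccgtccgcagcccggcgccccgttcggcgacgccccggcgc
Vcp: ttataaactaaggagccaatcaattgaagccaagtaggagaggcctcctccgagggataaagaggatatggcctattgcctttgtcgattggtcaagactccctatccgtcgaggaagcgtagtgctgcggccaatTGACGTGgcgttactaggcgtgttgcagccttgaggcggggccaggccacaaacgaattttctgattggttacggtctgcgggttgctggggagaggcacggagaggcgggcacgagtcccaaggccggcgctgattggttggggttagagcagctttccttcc
Herpud1: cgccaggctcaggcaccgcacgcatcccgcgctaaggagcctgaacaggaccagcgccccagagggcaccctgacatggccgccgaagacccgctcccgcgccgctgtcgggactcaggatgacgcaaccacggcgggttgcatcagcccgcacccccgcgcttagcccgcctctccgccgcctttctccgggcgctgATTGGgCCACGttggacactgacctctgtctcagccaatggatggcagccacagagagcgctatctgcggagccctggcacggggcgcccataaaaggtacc
These lie at chr4:33031130-33031429 (plus strand), chr4:43000458-43000757 (minus strand) and chr8:94386179-94386478 (plus strand). In Ube2j1 the element reads CACGTCA because it lies on the reverse strand, starting 67 bases before the start site. In Vcp it starts 114 bases before the start site, and TGACNNNGC matches from the same base, so these matches overlap. Ube2j1 likewise has a TGACNNNGC match on the reverse strand, from 69 bases before the start site, that covers its CACGTCA. Its forward TGACNNNGC match, from 31 bases before the start site, lies apart. In Herpud1 the second ER stress element starts 52 bases before the start site. Of 14 genes of the Hrd1 complex and its luminal partners with a window, 3 held one of the 3 elements (Syvn1, Derl3 and Herpud1). These 14 are not the same set as the 14 tested genes given below. Derl1 and Erlec1 had no window and were not searched, while Selenos and Fam8a1 had a window but no row in the counts. A match is a description of letters and not a shown binding site.

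Per kilobase of exon, Ube2j1 was the most abundant of the 9 in every group, and Ube2j2 the least. Ube2j1, a tail-anchored E2 of the ER membrane that works with Hrd1 in mammals, averaged 49 ± 2.55 CPM per kilobase in KO-labelled iTreg, 46.5 ± 3.55 in WT-labelled iTreg, 53.7 ± 2.29 in KO-labelled nTreg and 46.9 ± 4.71 in WT-labelled nTreg (SD, n = 3 each). Its relative Ube2j2, which can also join ubiquitin to residues other than lysine, averaged 1.85 ± 0.147, 1.57 ± 0.284, 1.67 ± 0.433 and 1.42 ± 0.442 CPM per kilobase in KO-labelled iTreg, WT-labelled iTreg, KO-labelled nTreg and WT-labelled nTreg (SD, n = 3 each). The libraries of Ube2j1 and of Ube2j2 did not overlap with those of any other of the 9 genes on this scale, in any group. In WT-labelled nTreg the order below Ube2j1 was Rnf5 (24.2 ± 2.93 CPM per kilobase), Ube2g2 (20.9 ± 0.884), Nploc4 (20.5 ± 0.381), Vcp (18.7 ± 2.55), Rnf139 (18.2 ± 0.348), Ufd1l (17.3 ± 0.34), Faf2 (12.3 ± 0.523) and Ube2j2. The range of Vcp overlapped those of Rnf5, Ube2g2, Nploc4, Rnf139 and Ufd1l, and Rnf5 overlapped Ube2g2 and touched Nploc4, so their order is not set by these libraries. In KO-labelled iTreg the places changed to Ube2g2 (36.3 ± 2.2 CPM per kilobase), Nploc4 (32.6 ± 0.846), Rnf5 (26.5 ± 4.65), Vcp (26.1 ± 1.92), Ufd1l (19.6 ± 0.518), Rnf139 (18 ± 2.53) and Faf2 (13.5 ± 0.123) below Ube2j1. There Rnf5 overlapped Vcp, and Rnf139 overlapped Ufd1l, so these neighbours are not ordered. Lengths are all exons of a gene in GENCODE M21, and a cell that uses a short isoform would be given too low a level.

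**Figure D1:**
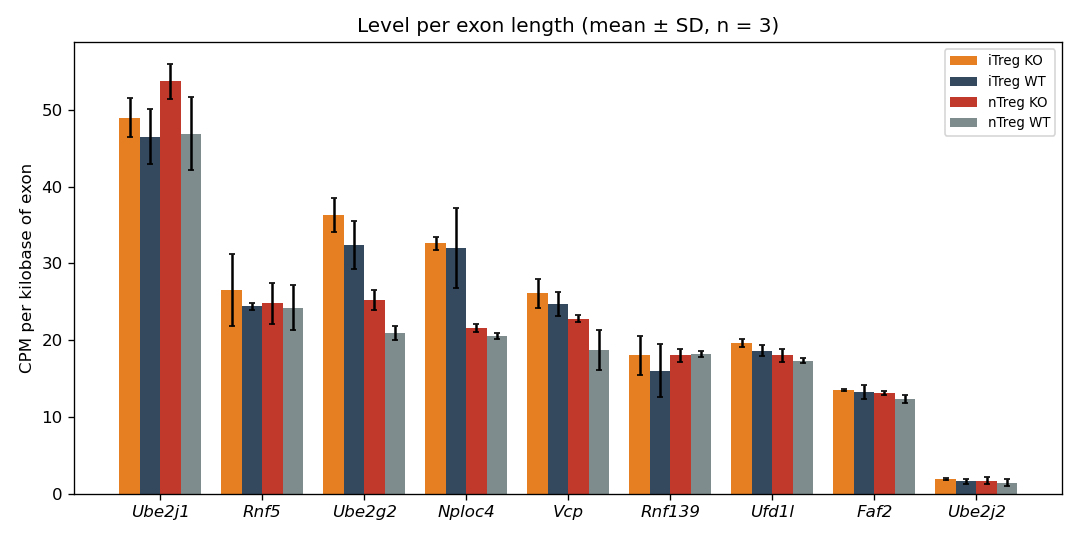
Bars give the mean level of each gene in CPM per kilobase of exon in KO- and WT-labelled iTreg and nTreg, with the SD over 3 libraries. Ube2j1 stands highest at 46.5 to 53.7 and Ube2j2 lowest at 1.42 to 1.85 CPM per kilobase in all 4 groups.

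KO-labelled against WT-labelled nTreg asked whether the other ligases, the E2 enzymes or the Vcp machinery differ where both Hrd1 alleles are floxed. None of the 9 genes had a Benjamini-Hochberg adjusted p under 0.05 in the quasi-likelihood test of edgeR, where 2.53% of all tested genes passed (304 of 12038). At an unadjusted p under 0.05 there were 2 of 9, Ube2g2 and Vcp, against 1610 of 12038 tested genes. DESeq2 called none of the 9 (4.12% of all genes), and limma voom called the same 2 (adjusted p = 0.0411 and 0.0485), with 8.91% of all genes called. The log2 fold changes lay between -0.02 and 0.29 with a median of 0.08, beside a median of 0.01 over all tested genes.

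Among the ligases, Rnf139 (Trc8), a sterol-sensing ligase that works with Insig proteins, had 87, 94.2 and 94.4 CPM in KO-labelled nTreg, against 95.1, 92.3 and 91.8 CPM in WT-labelled nTreg. The groups overlapped and the log2 fold change was -0.02 (SE 0.14; 0.796- to 1.22-fold as the 95% interval; adjusted p = 0.978, edgeR). Rnf5 (Rma1), a small membrane ligase that in human cells acts with Derlin-1 on misfolded CFTR, had 32.2, 39 and 39 CPM in KO-labelled nTreg and 30.9, 39.1 and 37.5 CPM in WT-labelled nTreg. Its groups overlapped too (log2 fold change 0.04, SE 0.14; 0.826- to 1.27-fold; adjusted p = 0.947, edgeR).

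Of the E2 enzymes, Ube2g2, which the ligase gp78 and the protein Aup1 bring to the membrane, had 62.6, 63.5 and 57.6 CPM in KO-labelled nTreg, against 52.9, 48.6 and 50.8 CPM in WT-labelled nTreg. Each KO-labelled library lay above each WT-labelled one, with a log2 fold change of 0.27 (SE 0.10; 1.04- to 1.4-fold; adjusted p = 0.232, edgeR). For Ube2j1 the values were 185, 185 and 199 CPM in KO-labelled nTreg and 168, 148 and 181 CPM in WT-labelled nTreg. Again the groups did not overlap, by a narrow margin (log2 fold change 0.19, SE 0.10; 0.983- to 1.33-fold; adjusted p = 0.433, edgeR). Ube2j2 was low, at 9.39, 7.06 and 5.61 CPM in KO-labelled nTreg and 5.02, 8.49 and 5.21 CPM in WT-labelled nTreg. With 34 to 112 reads per library its interval was the widest of the 9 (0.789- to 1.76-fold; adjusted p = 0.752, edgeR).

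For the extraction machinery, Vcp had 113, 110 and 109 CPM in KO-labelled nTreg, against 102, 77.4 and 92.3 CPM in WT-labelled nTreg. The groups did not overlap, and WT replicate 2 was the lowest library. The log2 fold change was 0.29 (SE 0.11; 1.04- to 1.44-fold; adjusted p = 0.243, edgeR), the largest of the 9. Nploc4, the Vcp cofactor that binds ubiquitin chains with Ufd1, had 105, 100 and 104 CPM in KO-labelled nTreg and 95.9, 98.5 and 99.4 CPM in WT-labelled nTreg (log2 fold change 0.08, SE 0.11; 0.894- to 1.25-fold; adjusted p = 0.814, edgeR). Its partner Ufd1l had 78.6, 73.9 and 81 CPM in KO-labelled nTreg and 74.1, 76.6 and 74 CPM in WT-labelled nTreg. The groups of Ufd1l overlapped while those of Nploc4 lay just apart (for Ufd1l 0.922- to 1.17-fold; adjusted p = 0.817, edgeR). Faf2 (Ubxd8), a hairpin membrane protein that anchors Vcp to the ER and to lipid droplets, had 109, 105 and 106 CPM in KO-labelled nTreg and 95.6, 104 and 101 CPM in WT-labelled nTreg (log2 fold change 0.08, SE 0.08; 0.937- to 1.2-fold; adjusted p = 0.708, edgeR).

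So 5 of the 9 genes (Ube2j1, Ube2g2, Vcp, Nploc4 and Faf2) had every KO-labelled nTreg library above every WT-labelled one, where 15.7% of all tested genes did so, and 8 of 9 had a positive log2 fold change, against 6223 of 12038. The sizes stayed small, with every upper bound under 1.5-fold except that of Ube2j2. By correlations in these same data, and not by the labels, replicate numbers were taken to pair KO and WT libraries of a cell type. With the number as a block over all 12 libraries none of the 9 passed (Vcp at adjusted p = 0.0708, Ube2g2 at 0.113 and Ube2j1 at 0.145, edgeR), while 9% of all genes did. In the 6 nTreg libraries fitted alone with that block, Vcp (0.30), Ube2g2 (0.27) and Ube2j1 (0.20) passed, with adjusted p of 0.00091, 0.00353 and 0.00428 (edgeR). That fit leaves fewer residual degrees of freedom than the block over all 12 libraries. In that fit 33.4% of all genes passed, so 3 of 9 is near the share among all genes. The myeloid transcripts that differ between nTreg libraries were not tested as a part of these differences. Without both nTreg libraries numbered 2, and likewise without the 3 libraries high in Xist, none of the 9 passed.

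**Figure D2:**
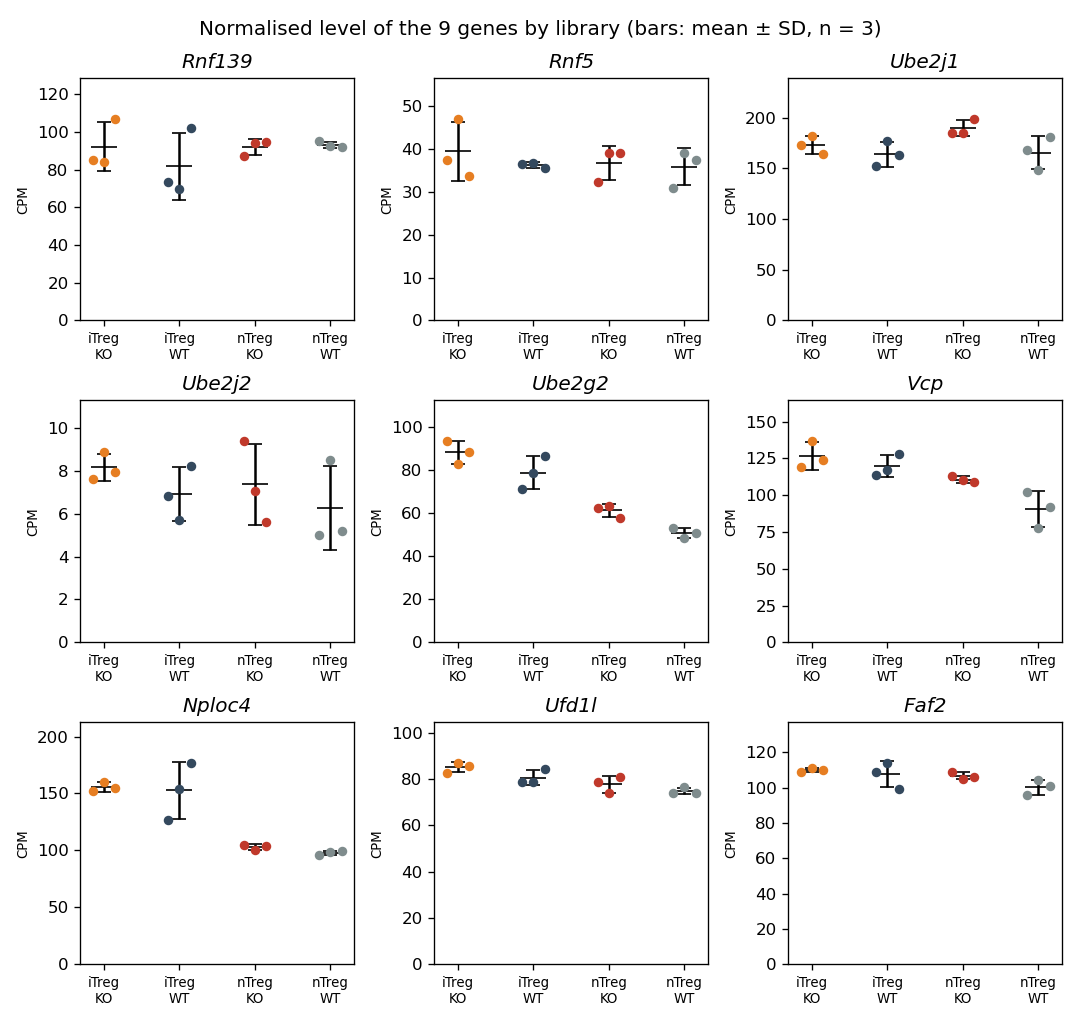
Each panel plots 1 gene in CPM, with a point per library, the mean and the SD (n = 3) for KO- and WT-labelled iTreg and nTreg. Vcp lies at 109 to 113 CPM in KO-labelled nTreg and 77.4 to 102 CPM in WT-labelled nTreg. Ube2g2 and Nploc4 lie higher in every iTreg library than in any nTreg library of the same label, as do 34.1% (KO label) and 37.4% (WT label) of all genes.

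KO-labelled against WT-labelled iTreg put the same question to cells made in culture. Again 0 of 9 genes passed (edgeR), none had an unadjusted p under 0.05, and neither DESeq2 nor limma voom called any, where 0.183% of all tested genes passed. The log2 fold changes were between 0.03 and 0.24, with a median of 0.08 beside -0.01 over all genes. All 9 were positive, beside 5661 of 12038 tested genes. With limma voom, however, the value of Faf2 turned to -0.01, and leaving out 1 library turned the sign of Nploc4, Rnf5 or Faf2. Vcp had 119, 137 and 124 CPM in KO-labelled iTreg and 114, 117 and 128 CPM in WT-labelled iTreg (log2 fold change 0.08, SE 0.11; 0.904- to 1.24-fold; adjusted p = 0.914, edgeR). Ube2g2 had 93.6, 82.9 and 88.4 CPM in KO-labelled iTreg and 71.1, 78.6 and 86.4 CPM in WT-labelled iTreg (log2 fold change 0.17, SE 0.10; 0.971- to 1.3-fold; adjusted p = 0.765, edgeR). Ube2j1 had 173, 182 and 164 CPM in KO-labelled iTreg and 152, 177 and 163 CPM in WT-labelled iTreg (0.906- to 1.22-fold). In each of these 3 genes the groups overlapped.

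Rnf139 varied widely between iTreg libraries of 1 label, with 85.2, 84 and 107 CPM in KO-labelled and 73.5, 69.6 and 102 CPM in WT-labelled iTreg. Replicate 3 was the highest library under both labels (log2 fold change 0.17, SE 0.14; 0.909- to 1.4-fold; adjusted p = 0.842, edgeR). Rnf5 had 37.5, 47 and 33.6 CPM in KO-labelled iTreg and 36.4, 36.8 and 35.5 CPM in WT-labelled iTreg. Ube2j2 stood at 7.62, 8.87 and 7.95 CPM in KO-labelled iTreg and at 6.83, 5.72 and 8.22 CPM in WT-labelled iTreg. Their intervals were 0.876- to 1.34-fold for Rnf5 and 0.795- to 1.74-fold for Ube2j2. Nploc4 had 152, 160 and 155 CPM in KO-labelled iTreg, against a wider 127, 154 and 177 CPM in WT-labelled iTreg. Ufd1l (82.7, 87.1 and 85.7 CPM in KO-labelled, 78.9, 78.9 and 84.3 CPM in WT-labelled iTreg) and Faf2 (109, 111 and 110 CPM in KO-labelled, 109, 114 and 99.4 CPM in WT-labelled iTreg) stayed within 1.19-fold and 1.16-fold by the upper bound of their intervals. No gene of the 9 had groups that did not overlap, where 4.68% of tested genes lay higher without overlap and 4.95% lower.

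The difference of the KO effects (iTreg minus nTreg) was tested directly. None of the 9 genes passed with edgeR, DESeq2 or limma voom, and none had an unadjusted p under 0.05 in edgeR, while 0.291% of all genes passed. The values ran from -0.21 for Vcp (SE 0.15, adjusted p = 0.901, edgeR) to 0.19 for Rnf139 (SE 0.20, adjusted p = 0.959, edgeR).

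Some genes of the Hrd1 complex and its luminal partners gave larger values in the same libraries. Of 14 tested genes of the Hrd1 complex and its luminal partners, 5 were higher in KO-labelled nTreg and none lower (median log2 fold change 0.47). In KO-labelled iTreg 3 were higher and none lower (median 0.255). These include genes that were known to pass before the list was written. The 5 are Derl3, Herpud1, Sel1l, Derl1 and Syvn1. Syvn1 (adjusted p = 0.0232, edgeR) did not pass when any 1 of the 6 nTreg libraries was left out (0.0564 to 0.12). The genes of this list that did not pass in nTreg had log2 fold changes of 0.74 (Selk), 0.72 (Edem2), 0.32 (Edem1) and 0.24 (Derl2). The rest had 0.08 (Erlec1), 0.06 (Os9), 0.05 (Edem3), 0.00 (Man1b1) and -0.01 (Herpud2). Sel1l, the scaffold of Hrd1, averaged 271 ± 29.6 CPM in KO-labelled nTreg and 128 ± 7.18 CPM in WT-labelled nTreg (SD, n = 3 each), and the log2 fold change was 1.07 with an interval from 0.82 to 1.32 (adjusted p = 0.000224, edgeR). Herpud1, an ER stress protein that binds Hrd1, averaged 410 ± 28.2 CPM in KO-labelled nTreg and 86.9 ± 7.64 CPM in WT-labelled nTreg (interval from 1.95 to 2.53; adjusted p = 3.76e-06, edgeR). Derl1, the Derlin of the ERAD channel that also contacts Vcp, averaged 157 ± 7.52 CPM in KO-labelled nTreg and 102 ± 1.24 CPM in WT-labelled nTreg (interval from 0.38 to 0.85; adjusted p = 0.0074, edgeR; 0.181 without both nTreg libraries numbered 2 and 0.148 without the 3 libraries high in Xist). Derl3, a Derlin induced by ER stress, averaged 82.6 ± 14.3 CPM in KO-labelled nTreg and 1.64 ± 0.562 CPM in WT-labelled nTreg. The interval of Vcp, from 0.06 to 0.52, overlapped those of Derl1 and Syvn1 (for Syvn1 from 0.44 to 1.17) and lay below those of Sel1l, Herpud1 and Derl3. In iTreg Sel1l, Herpud1 and Derl3 passed again (log2 fold changes 0.80, 1.06 and 2.64; adjusted p = 0.0195, 0.00639 and 0.0041, edgeR), but without the 3 libraries high in Xist their adjusted p was 0.635, 0.316 and 0.17. Without iTreg WT replicate 1 it was 0.131, 0.0531 and 0.0531, and without iTreg WT replicate 2 it was 0.129, 0.0501 and 0.0501. For Sel1l it was 0.102 without iTreg KO replicate 1 and 0.0548 without iTreg KO replicate 2. A difference between the 9 genes and these partners was not tested.

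**Figure D3:**
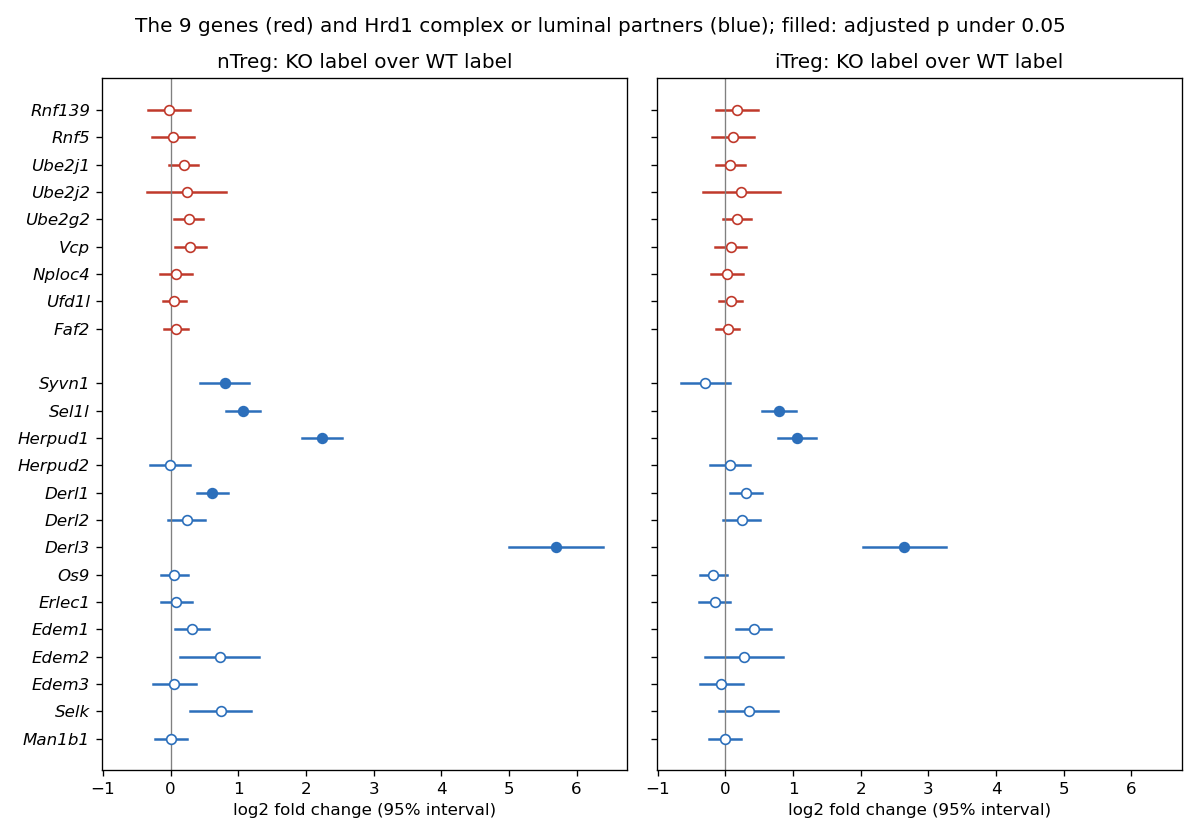
Points give the log2 fold change of KO-labelled over WT-labelled libraries with its 95% interval, for the 9 genes in red and for Hrd1 and its partners in blue, in nTreg (left) and iTreg (right). Filled points passed at an adjusted p under 0.05. The red points lie between -0.02 and 0.29 with none filled, and the blue ones reach 5.70 in nTreg (Derl3).

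Counts for the wider pathway, here and for the steps after extraction, stand beside 2.53% of all tested genes that passed in nTreg and 0.183% in iTreg. An unadjusted p under 0.05 (edgeR) was found for 1610 of 12038 genes in nTreg and 910 in iTreg. Of 14 other ER ligases, 1 passed in nTreg, Rnf145, a sterol-regulated ligase, with 161, 193 and 178 CPM in KO-labelled and 256, 303 and 267 CPM in WT-labelled nTreg. It fell by 0.63 on the log2 scale (SE 0.13, adjusted p = 0.0249, edgeR), a call that ended when any 1 of the 6 nTreg libraries was left out (adjusted p 0.0522 to 0.135), without both libraries numbered 2 (0.217) and without the 3 libraries high in Xist (0.295). At an unadjusted p under 0.05 there were 3 of 14; DESeq2 called 1 ligase, lower, and limma voom called 1 higher and 1 lower. The ligases had a median of 0.11 in nTreg and -0.00 in iTreg, where 0 of 14 passed (edgeR; 1 at an unadjusted p under 0.05; 0 with DESeq2 or limma voom). Of 10 other E2, E1 and ubiquitin genes none passed in nTreg or iTreg (1 and 0 at an unadjusted p under 0.05; none with DESeq2 or limma voom). Of 22 other Vcp cofactors, which include p47, the UBX proteins and the deubiquitinases Yod1 and Atxn3, edgeR called none in nTreg (4 at an unadjusted p under 0.05; 1 with DESeq2 and 2 with limma voom, all higher) and none in iTreg (0 at an unadjusted p under 0.05 and 0 with either tool). Their median was -0.00 in nTreg and 0.03 in iTreg.

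After extraction, shuttle factors and deubiquitinases pass the substrate on. Of 13 tested, 1 passed in nTreg, Nfe2l1 (Nrf1), an ER-bound transcription factor that Vcp releases and that drives proteasome genes. Nfe2l1 had 224, 255 and 282 CPM in KO-labelled nTreg, against 150, 147 and 146 CPM in WT-labelled nTreg. This was 1.72-fold higher (adjusted p = 0.000687, edgeR; 0.0513 without the 3 libraries high in Xist). In iTreg it had 167, 162 and 160 CPM in KO-labelled and 135, 125 and 143 CPM in WT-labelled libraries (adjusted p = 0.488, edgeR). None of the 13 passed there (2 at an unadjusted p under 0.05; 0 with DESeq2 or limma voom). Of 32 proteasome subunit genes none passed in nTreg or in iTreg with edgeR, DESeq2 or limma voom, and none had an unadjusted p under 0.05 in edgeR. Their medians were 0.08 and 0.07, with 26 and 27 positive values, beside 6223 and 5661 of 12038 tested genes.

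Setting iTreg against nTreg asked how the machinery differs between induced and natural Treg, in libraries of 1 label at a time. The comparisons with the KO label and with the WT label use different libraries. Most of the transcriptome differs between these cells: 61.9% of all tested genes passed with the KO label and 65.2% with the WT label. Of the 9 genes, 2 passed with the KO label (Ube2g2 and Nploc4) and 3 with the WT label (Ube2g2, Nploc4 and Vcp), all higher in iTreg, where 32.1% and 34.8% of all genes were called higher. The other 6 did not pass under either label. The summed myeloid markers were 3.58 to 5.92 CPM in iTreg and 31.9 to 267 CPM in nTreg, and their part in these differences was not tested.

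Nploc4 averaged 156 ± 4.12 CPM in KO-labelled iTreg and 103 ± 2.69 CPM in KO-labelled nTreg (SD, n = 3 each), 1.51-fold higher (log2 fold change 0.59, SE 0.11, adjusted p = 0.00055, edgeR). With the WT label it averaged 153 ± 25.5 CPM in iTreg and 97.9 ± 1.83 CPM in nTreg, 1.56-fold higher (log2 fold change 0.64, SE 0.11, adjusted p = 0.000278, edgeR). Ube2g2 averaged 88.3 ± 5.35 CPM in KO-labelled iTreg and 61.2 ± 3.17 CPM in KO-labelled nTreg (log2 fold change 0.53, SE 0.10, adjusted p = 0.000525, edgeR), and 78.7 ± 7.64 CPM in WT-labelled iTreg and 50.7 ± 2.16 CPM in WT-labelled nTreg (log2 fold change 0.63, SE 0.10, adjusted p = 0.000128, edgeR). For both genes every iTreg library lay above every nTreg library of the same label, as 34.1% (KO label) and 37.4% (WT label) of all genes did. Vcp averaged 120 ± 7.1 CPM in WT-labelled iTreg and 90.6 ± 12.4 CPM in WT-labelled nTreg (1.32-fold; log2 fold change 0.40, SE 0.11, adjusted p = 0.00531, edgeR). With the KO label it averaged 127 ± 9.04 CPM in iTreg and 111 ± 2.14 CPM in nTreg (log2 fold change 0.19, SE 0.11; 0.976- to 1.34-fold; adjusted p = 0.128, edgeR). Whether the 2 labels differ in this is the difference of KO effects given above, which Vcp did not pass.

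The other genes did not pass with edgeR. Ufd1l lay higher in every iTreg library than in every nTreg library of the same label, as 34.1% (KO label) and 37.4% (WT label) of all genes did. The folds were 1.09 and 1.08, with adjusted p of 0.169 and 0.249 (edgeR). Ube2j1 lay lower without overlap in KO-labelled iTreg than in KO-labelled nTreg, like 32.8% of all genes (log2 fold change -0.13, SE 0.10, adjusted p = 0.26, edgeR) and overlapped with the WT label. Faf2 had the smallest SD of the 9 over all 12 libraries, 0.0731 on the log2 scale, followed by Ufd1l with 0.0827. By range Ufd1l was slightly narrower (highest over lowest library 1.18, against 1.19 for Faf2). Rnf139 had a log2 fold change of -0.19 with the WT label (adjusted p = 0.267, edgeR), and iTreg WT replicate 3 was its highest library there. Without that library it was -0.38 (adjusted p = 0.0136, edgeR), and with limma voom -0.31 (adjusted p = 0.0189), so both of these alternatives called it lower in iTreg. Rnf5 (log2 fold change 0.10 with the KO label and 0.02 with the WT label) and Ube2j2 (0.15 and 0.15) did not pass.

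**Figure D4:**
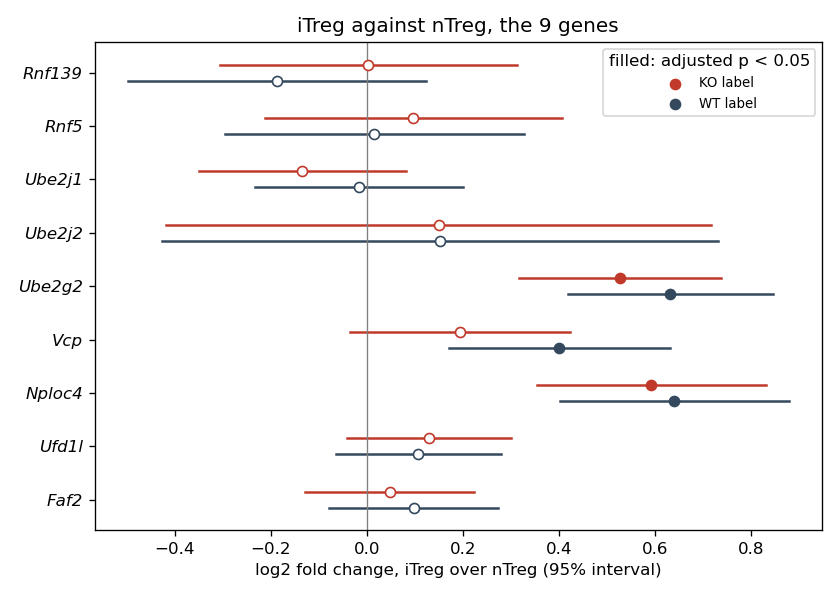
Log2 fold changes of iTreg over nTreg with 95% intervals for the 9 genes, in KO-labelled (red, upper) and WT-labelled (dark, lower) libraries; filled points passed at an adjusted p under 0.05. Ube2g2 and Nploc4 lie between 0.53 and 0.64 under both labels, and Vcp is filled with the WT label only.

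Nploc4 and Ufd1l encode partners of 1 heterodimer, yet only the first passed, so their ratio was taken within each library, where library scaling cancels. Nploc4 had 1.84, 1.84 and 1.81 reads per Ufd1l read in KO-labelled iTreg, 1.6, 1.96 and 2.11 in WT-labelled iTreg, 1.34, 1.36 and 1.29 in KO-labelled nTreg and 1.29, 1.29 and 1.34 in WT-labelled nTreg. Every iTreg library lay above every nTreg library, and the ratio was 1.41-fold higher in iTreg (6 libraries each). Same-numbered KO and WT libraries were taken as pairs, which leaves 3 pairs of each cell type. The two-sided exact permutation test over pairs gave p = 0.1, the smallest that its 20 arrangements allow. Ube2g2 had 0.541, 0.457 and 0.54 reads per Ube2j1 read in KO-labelled iTreg, 0.468, 0.444 and 0.529 in WT-labelled iTreg, 0.339, 0.343 and 0.29 in KO-labelled nTreg and 0.315, 0.327 and 0.281 in WT-labelled nTreg. The ratio of these E2 genes was 1.57-fold higher in iTreg, again with no overlap. The ranges of 3 further ratios overlapped. Vcp per Ufd1l was higher in iTreg by 0.18 and Vcp per Faf2 by 0.23 on the log2 scale, and Vcp per Nploc4 was lower in iTreg, at 0.807 of the nTreg value. All 5 ratios had the same exact permutation p of 0.1, also after adjustment over the 5, so this design could not reach 0.05 for any of them. The ratios were chosen after the levels were seen. A ratio shows unequal change and not which gene moved.

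**Figure D5:**
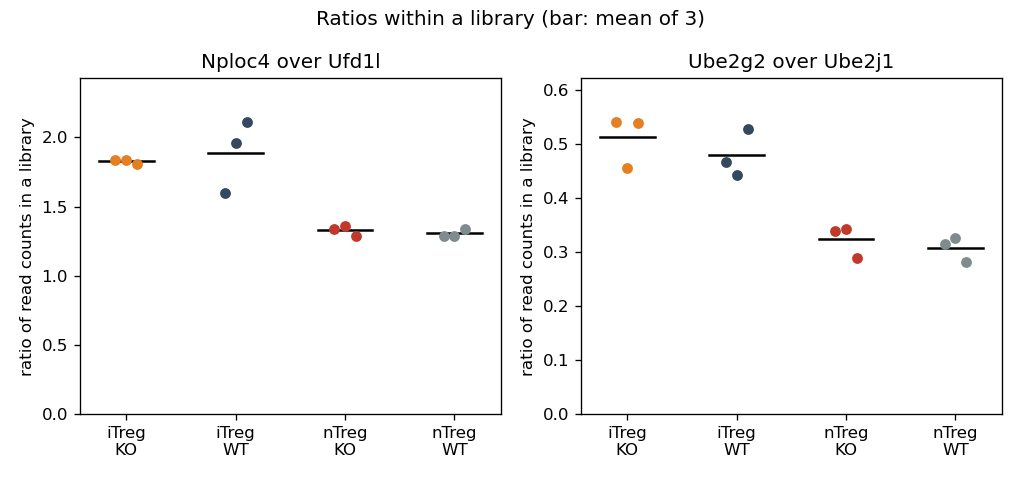
Ratios of read counts within a library for Nploc4 over Ufd1l (left) and Ube2g2 over Ube2j1 (right), a point per library and a bar at the mean of 3. The iTreg libraries lie at 1.6 to 2.11 and 0.444 to 0.541, above the nTreg libraries at 1.29 to 1.36 and 0.281 to 0.343.

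For the neighbouring steps only counts and medians are given, with no test against the 9 genes. Of all 12038 genes, 3865 were higher and 3586 lower in iTreg with the KO label, and 4187 higher and 3663 lower with the WT label. Of 32 proteasome subunit genes 30 were higher in iTreg under each label, with a median log2 fold change of 0.92 (KO label) and 0.94 (WT label), beside 0.13 and 0.11 for the 9 genes and 0.01 and 0.05 for all tested genes. Of 22 other Vcp cofactors 6 were higher and 9 lower in iTreg under each label, with medians of -0.23 (KO label) and -0.17 (WT label). Of the 14 Hrd1 complex and luminal genes, 10 were lower and none higher in iTreg with the KO label (median -0.59), and 5 were lower and 1 higher with the WT label (median -0.18). The KO-label count uses the KO-labelled nTreg libraries, where 5 of these genes were higher than with the WT label. Of the list, 2 passed the difference of KO effects, both lower (Herpud1 and Derl3, adjusted p = 0.0169 and 0.012, edgeR). Without nTreg WT replicate 1 they did not pass (0.0602 and 0.0532, edgeR). The 14 other ER ligases had 3 higher and 3 lower under each label.

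Over the 12 libraries the profile nearest to that of Vcp was Ddx49, with a root-mean-square difference of 0.0576 in centred log2 CPM, followed by Triap1 and Copz1 (0.0744 each). For Nploc4 it was Rwdd4a (0.0587), for Ube2g2 Txlna (0.0894), for Ube2j1 Rab5a (0.0725), for Ufd1l Nfs1 (0.0258), for Faf2 Riok1 (0.0608), for Rnf139 Atxn7l3 (0.0688), for Rnf5 Gfm2 (0.0917) and for Ube2j2 Pdss2 (0.15). None of the 9 was among the 3 nearest of another.

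All 9 genes are protein-coding in GENCODE M21 (mm10). Vcp lies on chromosome 4 (42979963 to 43000507, minus strand), as do Ube2j1 (33031416 to 33052363) and Ube2j2 (155943831 to 155959604), both on the plus strand. Nploc4 lies on chromosome 11 (120380370 to 120437708, minus strand), Ufd1l, named Ufd1 there, on chromosome 16 (18811779 to 18835261, plus strand), and Faf2 on chromosome 13 (54621784 to 54664063, plus strand). Rnf139 lies on chromosome 15 (58889229 to 58907057, plus strand), Rnf5 on chromosome 17 (34601091 to 34603690, minus strand) and Ube2g2 on chromosome 10 (77622275 to 77645993, plus strand). The counting is not stated to use strand, so reads in shared exons cannot be assigned with certainty. Rnf139 shares 22.3% of its exon bases with Tatdn1 on the opposite strand, which itself passed as higher in iTreg (log2 fold change 0.74 under both labels; adjusted p = 0.00863 with the KO label and 0.00912 with the WT label, edgeR). Rnf139 also shares 3.86% with the protein-coding Gm49356, on its own strand. Rnf5 shares 24.7% with an antisense gene, and Vcp 7.26% with 1700022I11Rik. Ube2g2 shares 6.83% with the protein-coding Gm49325 and 3.46% with Mir1930, both on its own strand. Ufd1l shares 4.82% with Cdc45, a replication gene that was higher in KO-labelled nTreg (log2 fold change 0.94, adjusted p = 0.0249, edgeR). Cdc45 was also higher in iTreg than in nTreg, by 2.54 on the log2 scale with the KO label (adjusted p = 4.65e-07, edgeR) and by 3.67 with the WT label (adjusted p = 4.65e-08, edgeR), and its part in the Ufd1l counts was not tested. Vcp also has a processed pseudogene on chromosome X, Vcp-rs, and reads that match both could be split or dropped.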

How the data were processed

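For each of the 12 libraries the authors deposited a list of gene symbols with raw counts. Per the submitters' processing notes, cutadapt 1.13, STAR, HTSeq 0.6.1p1, DESeq2 and the build mm10 were used; roles, order and annotation are not given in the sources used here.

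Tests ran in R 4.3.3 with edgeR 4.0.16, by the robust quasi-likelihood test after TMM normalisation. All 12 libraries entered 1 model of 4 group means, which leaves 8 residual degrees of freedom, or 4 with the block. Fits of the compared libraries alone leave fewer than the matching fit of all 12. Genes were kept with edgeR's filter (minimum count 10, minimum total 15). Adjusted p is Benjamini-Hochberg over 12038 genes, with 0.05 as the threshold. Intervals are 95% and cover the fitted spread between libraries. Alternatives were DESeq2 1.42.0, voom with quality weights (limma 3.58.1), RLE factors, filters set to none or to at least 5 CPM in 3 libraries, the replicate number as a block (KO comparisons), the compared libraries alone, and leaving out libraries. On simulated data the fit recovered 16.4% (nTreg) and 15.6% (iTreg) of 1.5-fold changes set between KO and WT. Of 2-fold changes it recovered 63.6% and 62.5%. A missing call alone therefore does not exclude changes of these sizes.

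The genes and lists were chosen with earlier results of these data known. Named were the 9 genes, Syvn1, up to 4 genes by smallest p of each list that passed in a KO comparison, and the nearest profiles; genes sharing exons with the 9 were added after the values were seen. Of the Hrd1 list, Selenos and Fam8a1 matched no row; of the shuttling list, Usp13 did not pass the filter. A further list is not reported here.

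Replicate numbers were checked by correlating deviations from group means. Same-numbered KO and WT libraries gave r of 0.438 to 0.572 (nTreg) and 0.307 to 0.629 (iTreg). Those of unlike number gave -0.421 to -0.0544 (nTreg) and -0.519 to 0.135 (iTreg). Across cell types, r was -0.0539 to 0.0953, so the number was taken as a pair within a cell type. The labels do not state this pairing, and the iTreg libraries numbered 2 differ in Xist, at 2040 (WT label) and 0 plain CPM (KO label). No library was a copy of another. Exon lengths and positions are from GENCODE M21, promoters from RefSeq (GRCm38.p6). Plots used matplotlib 3.10.9 (Python 3.11.15).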

Additional observations from a re-analysis of the deposited data

How the results depend on the processing

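With the replicate block over all 12 libraries 1083 genes passed in nTreg (KO against WT), 114 in iTreg and 217 for the difference, against 304, 22 and 35 without it; it changed no call of the 9 genes in these comparisons. DESeq2 called 496, 99 and 140 genes. Limma voom called 1072 in nTreg and 98 for the difference, and 2 of the 9 genes in nTreg. The compared libraries alone gave 1142 genes in nTreg and 0 in iTreg without a block, and with the replicate block 3746 genes and 3 of the 9 in nTreg. Without both nTreg libraries numbered 2 the counts were 103, 7 and 1, and without the 3 libraries high in Xist they were 71, 0 and 1. Leaving out 1 library at a time gave 167 to 216 genes in nTreg, 0 to 64 in iTreg and 1 to 58 for the difference. The cause of these shifts was not tested. Leaving out 1 library at a time, 0 of the 9 genes passed in the 3 KO comparisons, 2 passed for iTreg against nTreg with the KO label and 3 to 4 with the WT label. The replicate block was not used for iTreg against nTreg, a comparison between pairs, since its error leaves out the spread between pairs. In all other alternatives run, the calls of Ube2g2 and Nploc4 (both labels) and of Vcp (WT label) in iTreg against nTreg held. Depth limits Ube2j2 most.

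Directions that turned belong to log2 differences that did not pass and whose main value was smaller in size than its SE. They were not all close to 0. The main value was 0.15 for Ube2j2 in KO iTreg against KO nTreg (SE 0.26) and 0.12 for Rnf5 in iTreg KO against WT (SE 0.14). For Rnf139 (KO iTreg against KO nTreg, main value 0.00342) the value was -0.00908 with RLE factors, -0.00605 with no filter, -0.006973 with the stricter filter, -0.008927 with DESeq2 and -0.04971 with voom. For Rnf5 (WT iTreg against WT nTreg, 0.01602) it was -0.0267 with RLE factors, -0.03146 with no filter, -0.02757 with DESeq2 and -0.02251 in the compared libraries alone. With voom Rnf5 had -0.008107 for KO iTreg against KO nTreg and -0.02165 for the difference, Faf2 had -0.008112 in iTreg (KO against WT) and Nploc4 had 0.01795 for the difference. The difference of Ube2j2 (-0.002669) was 0.02606 with RLE factors, 0.03041 with no filter, 0.02214 with the replicate block, 0.02598 with DESeq2 and 0.08252 with voom. Ufd1l had -0.03273 for the difference without both nTreg libraries numbered 2, and Ube2j2 -0.01107 for KO iTreg against KO nTreg without the libraries high in Xist.

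Leaving out 1 library at a time moved nTreg KO effects over -0.03782 to 0.01898 (Rnf139) and -0.05812 to 0.1209 (Rnf5), and iTreg KO effects over -0.02925 to 0.2192 (Rnf5), -0.09078 to 0.151 (Nploc4) and -0.01946 to 0.07676 (Faf2). Differences of KO effects ran over -0.06581 to 0.1828 (Rnf5), -0.2838 to 0.2033 (Ube2j2), -0.1681 to 0.07398 (Nploc4) and -0.01949 to 0.05565 (Ufd1l). KO iTreg against KO nTreg ran over -0.1226 to 0.06668 (Rnf139), -0.04947 to 0.1973 (Rnf5) and -0.008499 to 0.3543 (Ube2j2), and WT iTreg against WT nTreg over -0.08044 to 0.07917 (Rnf5) and -0.09128 to 0.04885 (Ube2j1).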
